A study of Mus musculus with 8 samples.

Results

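The 4 CLK kinase genes Clk1, Clk2, Clk3 and Clk4, the SR protein kinase genes Srpk1 and Srpk2, and Ogt were followed through mouse monocyte development and in monocytes labelled as a knockout of Upf2. They were chosen by name, as genes known for detained introns or for control of SR proteins, and make up 7 of the 48709 genes of the deposited expression table. No threshold on these data chose them, but results of these data were known when they were named. Their levels and calls are therefore given as a description. The deposited intron tables list 115 introns of the 7 genes, of which 113 are among the 204362 introns present in the tables of all 8 libraries.

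The libraries were made from poly(A) RNA of untreated primary bone marrow cells of 5 groups. They are the monocyte-dendritic cell progenitor (MDP, wild type, 1 library), the common monocyte progenitor (cMoP, 2), Ly6Chi monocytes with a knockout of Upf2 (2), control Ly6Chi monocytes (2), and Ly6Clo monocytes (wild type, 1). The cMoP and control Ly6Chi libraries are labelled wild type and, in their descriptions, floxed. The labels name no Cre driver for the knockout, and a cell type tag that speaks of a cell line goes against the tissue labels. Neither the age nor the number of the animals was given in the sources used here.

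SR proteins are splicing factors whose arginine-serine repeats are phosphorylated. SRPK1 and SRPK2 act on them mainly in the cytoplasm, which brings them into the nucleus, and the CLK kinases act on them in the nucleus. OGT attaches the sugar O-GlcNAc to nuclear and cytoplasmic proteins. A detained intron is one that stays in a polyadenylated transcript held in the nucleus. Transcripts of the CLK genes and of Ogt are known examples in mouse and human cells. Splicing of their detained introns is known to depend on the activity of the kinase or sugar transferase that the gene encodes. Skipping of exon 4 of Clk1 or Clk4 is known to remove the catalytic domain. UPF2 takes part in nonsense-mediated decay (NMD), the breakdown of transcripts whose stop codon comes too early.

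Exon 4 and the intron bases beside it carry most of what follows, so the exon is shown for the 4 CLK genes, 5′ to 3′ on the gene's own strand, with exon bases in capitals and 20 intron bases on each side in lower case. The letters come from GENCODE vM21 transcripts (build GRCm38, the mm10 of the submitters' processing notes) that keep these introns. They lie at chr1:58420101-58420231 (minus strand) for Clk1, chr3:89169595-89169722 (plus) for Clk2, chr9:57758607-57758743 (minus) for Clk3 and chr11:51273058-51273188 (plus) for Clk4.
Clk1: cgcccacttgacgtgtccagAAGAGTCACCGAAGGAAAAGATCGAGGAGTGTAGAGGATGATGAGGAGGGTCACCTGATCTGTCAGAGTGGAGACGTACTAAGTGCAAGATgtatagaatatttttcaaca
Clk2: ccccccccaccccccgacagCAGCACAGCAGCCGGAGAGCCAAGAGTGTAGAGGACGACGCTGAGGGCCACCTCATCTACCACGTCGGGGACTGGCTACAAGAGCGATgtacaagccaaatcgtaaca
Clk3: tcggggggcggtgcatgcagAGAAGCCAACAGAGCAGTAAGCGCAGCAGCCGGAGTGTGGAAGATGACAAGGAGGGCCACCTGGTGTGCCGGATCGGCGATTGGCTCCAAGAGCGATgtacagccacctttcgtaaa
Clk4: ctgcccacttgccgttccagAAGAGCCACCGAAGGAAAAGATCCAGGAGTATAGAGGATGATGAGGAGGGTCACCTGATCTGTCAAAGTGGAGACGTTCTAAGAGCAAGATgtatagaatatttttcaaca

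The exon is 91 bases long in Clk1 and Clk4, 88 in Clk2 and 97 in Clk3, so none of the 4 is a multiple of 3. Clk1 and Clk4 are identical at 85 of 91 exon bases (93.4%), whereas the other pairs of genes share 60.6% to 67.4% of aligned bases. Skipping the exon shifts the reading frame. In Clk1 it leaves 135 codons, against 483 in the full transcript, with a stop in exon 5 that lies 812 bases before the last exon junction. The other genes are left with 136 of 500 codons (Clk2), 300 of 638 (Clk3) and 134 of 481 (Clk4), with the stop 743 to 821 bases before the last junction. For each of the 4 genes the annotation holds at least 1 NMD transcript that lacks exon 4 and at least 1 transcript that keeps introns 3 and 4 whole.

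The libraries held 28925018 to 37833159 spliced reads that match a listed intron exactly. In knockout Ly6Chi monocytes Upf2, the targeted gene, stood at 20.4 and 22.5 TPM (transcript abundance per length and library total), against 20.2 and 18.2 TPM in control Ly6Chi monocytes. Its junction of exons 2 and 3, the stretch that the labels' qPCR amplifies, had 10 and 13 spliced reads in the knockout and 41 and 45 in the control, and 16 to 59 in the other libraries. Of the stage markers, Flt3 was highest in MDP (197 TPM), Mpo in cMoP (12416 and 10338 TPM), Fn1 in Ly6Chi (1957 and 2084 TPM in the knockout, 3061 and 2444 TPM in the control), and Treml4 in Ly6Clo (659 TPM). Others did not mark their listed stage alone: Cx3cr1 and Csf1r, listed for MDP, were highest in Ly6Clo, and so was the sum of the MDP list, and Kit, listed for cMoP too, was highest in MDP. Ly6c2, listed for cMoP and Ly6Chi, overlapped between them. It stood at 4875 and 3518 TPM in cMoP, 4472 and 4817 TPM in the knockout and 3439 and 4057 TPM in the control. cMoP replicate 2 stood apart, with 6.09 boundary reads per 100 spliced reads against 8.32 to 11.6 in the other libraries. Its junctions near the 3′ end over those near the 5′ end of a gene (equal parts of its introns) had a median log2 ratio of 0.98, against 0.94 and 0.70 in the knockout, 0.70 in cMoP replicate 1 and 0.44 to 0.50 elsewhere. The labels do not tie replicates to different animals, and the p-values below therefore cover only how these libraries spread, which may be technical.

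**Figure D1:**
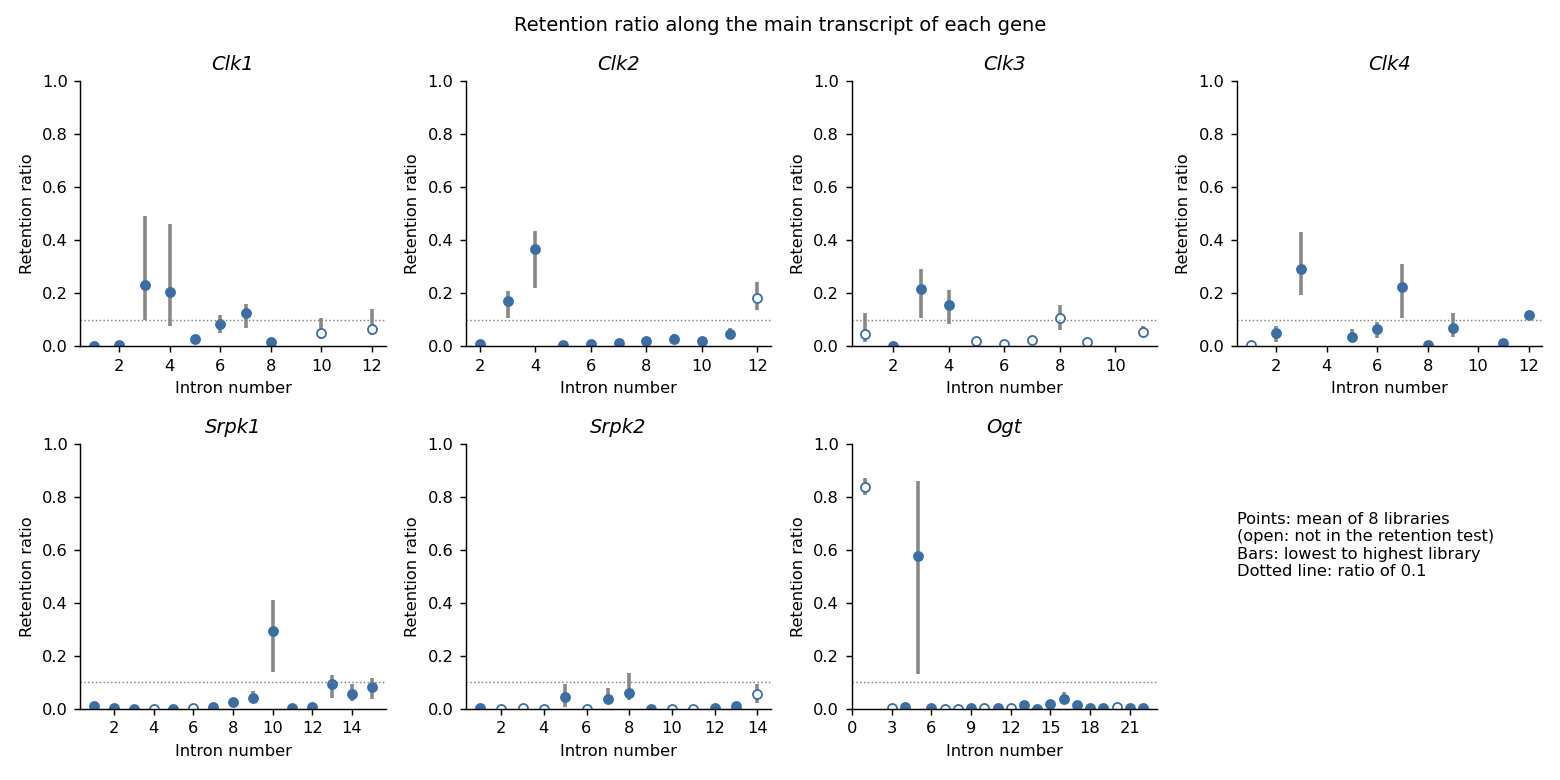
Retention ratio (y axis, 0 to 1) of each intron of the main annotated transcript of the 7 genes (x axis, intron number), with points for the mean of 8 libraries, bars from the lowest to the highest library, and open points for introns not in the retention test. Most introns lie under the dotted line at 0.1, and the introns beside exon 4 of the Clk genes, intron 10 of Srpk1 and intron 5 of Ogt rise above it.

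Retention sat at a few introns of each gene. The deposited retention ratio sets read coverage over an intron against that coverage plus the larger spliced read count at its ends, and an intron at 0.1 or more is called retained here. Introns with 20 or more boundary and spliced reads together in every library count as measured, and 108 introns of the 7 genes did. Of these, 12 were retained in every library, 27 in at least 1 and 81 in none. Clk1 and Srpk2 had none that was retained in every library. Among all 83439 measured introns 2.26% were retained in every library. Since these genes were named partly for detained introns, nothing is read from that difference. By library, 15 of the 108 were retained in cMoP replicate 2 and 22 in cMoP replicate 1, with the other libraries between them, while the share over all introns lay between 2.62% in cMoP replicate 2 and 10.5% in Ly6Clo.

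In Clk1, which encodes the best studied kinase of the family, intron 3 (chr1:58420212-58421082, 871 bases) and intron 4 (chr1:58419734-58420120, 387 bases), both between coding exons, were the most retained. Its intron 3 stood at 0.491 in MDP, at 0.243 and 0.129 in cMoP, at 0.097 and 0.119 in knockout Ly6Chi, at 0.163 and 0.136 in control Ly6Chi and at 0.461 in Ly6Clo. Intron 4 followed it, at 0.459, then 0.210 and 0.113, 0.077 and 0.121, 0.135 and 0.111, and 0.406 in the same order of groups. MDP and Ly6Clo thus stood well above all 6 other libraries at both introns, and these 2 groups have 1 library each. Boundary reads cross from exon into intron and are summed here over both ends, while spliced reads are those of the end with more. Counted so, intron 3 had 941 boundary against 217 spliced reads in MDP and 227 against 218 in cMoP replicate 2. The spliced reads include those that skip exon 4, 42 in cMoP replicate 2. As 2 ends are set against 1, these counts do not give the share of transcripts that keep the intron.

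In Clk4, the closest relative of Clk1, intron 3 (chr11:51272023-51273077) had a ratio of 0.430 in MDP, 0.261 and 0.194 in cMoP, 0.201 and 0.222 in knockout Ly6Chi, 0.317 and 0.268 in control Ly6Chi and 0.421 in Ly6Clo. MDP and Ly6Clo were again the highest, by a smaller margin than in Clk1. The tables list no separate intron 4 of Clk4. They list an intron from the same start to chr11:51273559 that spans exon 4, and its ratio was lower than that of intron 3 in each library, at 0.166 to 0.408. Intron 7 of Clk4, at a ratio of 0.106 to 0.309, was also retained in every library.

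In Clk2 the intron downstream of the exon was the more retained of the pair. Clk2 intron 4 (chr3:89169703-89170048) had a ratio of 0.435 in MDP, 0.351 and 0.218 in cMoP, 0.422 and 0.349 in knockout Ly6Chi, 0.408 and 0.392 in control Ly6Chi and 0.348 in Ly6Clo. Apart from cMoP replicate 2 the libraries differed little, and neither MDP nor Ly6Clo stood apart. Intron 3 of Clk2 lay between 0.106 and 0.208. In Clk3, intron 3 (chr9:57758724-57760823) had a ratio of 0.106 to 0.289 and intron 4 (chr9:57758351-57758626) one of 0.082 to 0.212, each lowest in cMoP replicate 2.

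**Figure D2:**
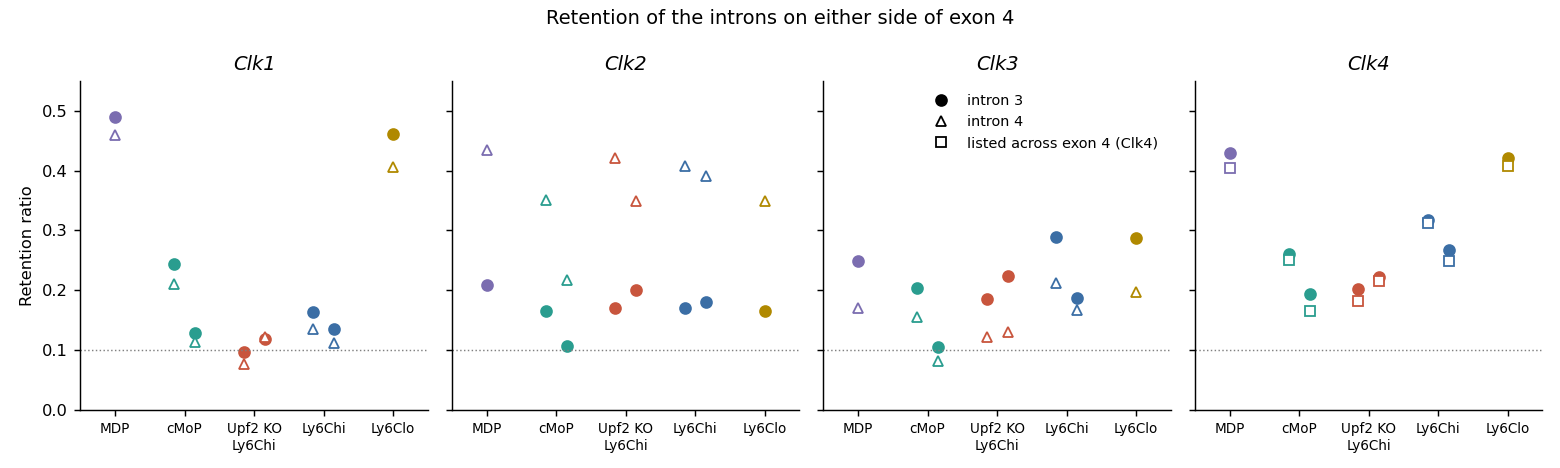
Retention ratio (y axis) of intron 3 (filled circles) and intron 4 (open triangles) in each library of the 5 groups (x axis) for the 4 Clk genes. For Clk4 open squares show the intron listed across exon 4. In Clk1 the MDP and Ly6Clo libraries lie at 0.406 to 0.491, above the other libraries at 0.077 to 0.243, while Clk2 shows no such gap.

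The test of retention, edgeR's quasi-likelihood test on boundary relative to spliced reads, covered 75 introns of the 7 genes among 48132 introns. None of the 75 passed at an adjusted p under 0.05 in any of the 4 comparisons. The background was as low, with 0.0% of all introns called between cMoP and MDP, 0.0145% between Ly6Chi and cMoP (0.00416% higher and 0.0104% lower), 0.0% between Ly6Clo and Ly6Chi, and 0.00208% between knockout and control Ly6Chi. At an unadjusted p under 0.05 there were 8, 8, 2 and 5 of the 75 in the same order, against 4020, 5234, 2391 and 3342 of all introns. DESeq2 passed 0, 2, 0 and 0 of the 75, the 2 being overlapping rows of Ogt, and 0, 15, 0 and 5 of all 48132. Leaving out cMoP replicate 1 left replicate 2 alone for cMoP. The median log2 change of all introns was then −0.84 between cMoP and MDP and 0.83 between Ly6Chi and cMoP. Without replicate 2 these medians were −0.11 and 0.12.

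For Clk1 intron 4 the log2 change of boundary over spliced reads was −1.86 in cMoP against MDP (unadjusted p = 0.00403, adjusted p = 0.597 in edgeR), and both cMoP libraries were below MDP. Without cMoP replicate 1 it was −2.32, the only 1 of 11 alternatives under which it passed. Between Ly6Clo and Ly6Chi it was 1.22 (adjusted p = 0.948), with Ly6Clo above both Ly6Chi libraries. It passed under 1 of the 11 alternatives tried, with only these groups fitted (adjusted p = 0.0384). That fit called 423 of all 48132 introns, where the main fit called 0. The median intron lay at −0.39 between cMoP and MDP and at 0.11 between Ly6Clo and Ly6Chi on the same scale.

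Exon 4 itself was left out of a large part of the spliced Clk1 and Clk4 transcripts. Skipping is given as the share of reads joining exon 3 to exon 5 among those reads plus the mean of the reads joined to each side of exon 4, with 95% Wilson intervals that cover counting error only. For Clk1 it was 32.8% in MDP (27.1% to 39.0%) and 26.5% (22.2% to 31.2%) and 18.3% (13.8% to 23.8%) in cMoP. In knockout Ly6Chi it was 50.3% (45.9% to 54.7%) and 49.9% (44.9% to 54.9%), against 52.5% (47.6% to 57.3%) and 47.5% (43.5% to 51.6%) in control Ly6Chi. In Ly6Clo it was 33.4% (29.5% to 37.6%). Both Ly6Chi groups thus lay above all other libraries, outside their intervals, and the knockout overlapped the control.

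Clk4 was skipped at 29.6% in MDP, 26.1% and 28.4% in cMoP, 40.4% and 49.1% in knockout Ly6Chi, 43.0% and 37.8% in control Ly6Chi and 26.0% in Ly6Clo. The 4 Ly6Chi libraries were again the highest. The 2 control libraries bracketed the lower knockout library, and the interval of the higher one, 43.1% to 55.03%, overlapped that of control replicate 1, 35.9% to 50.5%. For Ly6Chi against cMoP the group means were 50.0% ± 3.51 against 22.4% ± 5.79 for Clk1 and 40.4% ± 3.73 against 27.2% ± 1.58 for Clk4 (SD, n = 2 each). With 2 libraries a group an exact two-sided permutation test cannot go below p = 0.333, so none was run.

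Clk2 and Clk3 skipped the exon less, at 5.68% to 13.4% and 5.22% to 12.4% over the 8 libraries. Clk3 was lowest in Ly6Clo, at 5.22% (3.41% to 7.93%), and its other libraries overlapped between groups, with control Ly6Chi at 8.65% and 12.1%. Clk2 had a further choice at this exon. Between 34.3% and 42.9% of the reads joined to its start used an acceptor other than the one shown above, and the annotation gives a second acceptor 3 bases downstream, after the first CAG of the printed exon. The reads of these junctions numbered 169 to 587 per gene and library. Differences of a few percentage points were not detectable at this depth.

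**Figure D3:**
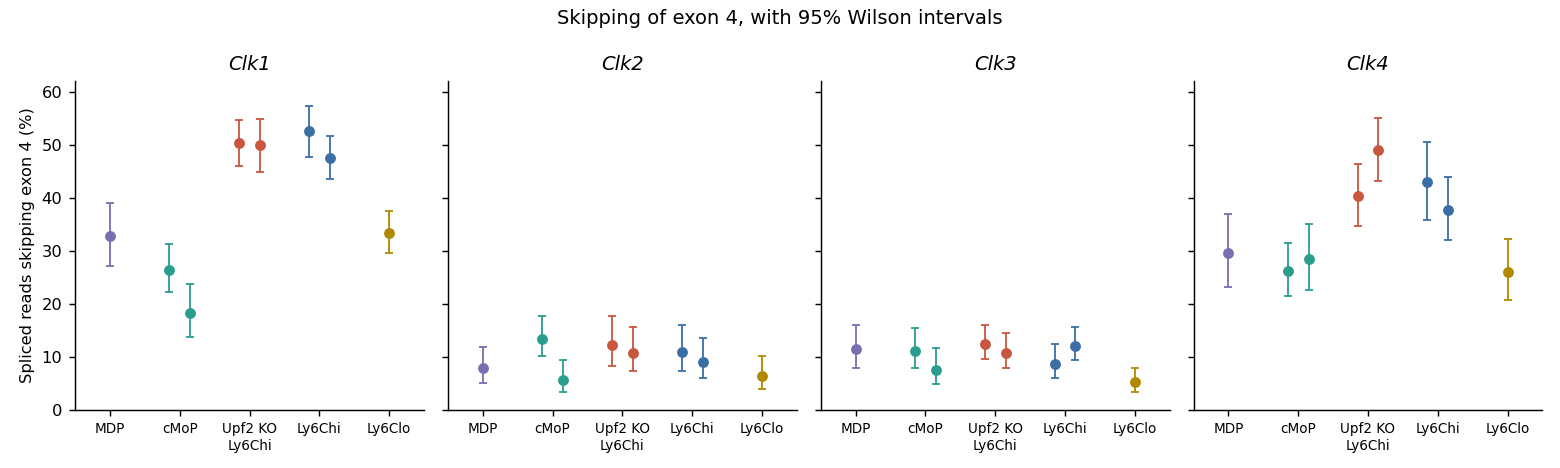
Share of spliced reads that skip exon 4 (y axis, percent) in each library of the 5 groups (x axis) for the 4 Clk genes, with 95% Wilson intervals as bars. The 4 Ly6Chi libraries, knockout and control, lie at 47.5% to 52.5% for Clk1, above 18.3% to 33.4% in the other groups.

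Skipping and retention at the same exon did not share one order of groups in Clk1. MDP and Ly6Clo, with the most retention beside exon 4, skipped it at 32.8% and 33.4%. The 4 Ly6Chi libraries had ratios of 0.097 to 0.163 at intron 3 and skipped the exon most, and cMoP replicate 2, at a ratio of 0.129, skipped it least.

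In Ogt 3 listed introns were retained in every library. They are intron 1, marked for a known exon and not tested (mean ratio 0.838), and 2 overlapping forms of a long intron. The longer form is intron 5 of the main transcript (chrX:101652209-101655623, plus strand, 3415 bases, between coding exons), and the inner form ends at chrX:101653975. The start of the intron, with 20 exon bases in capitals before it, and the inner acceptor, with the 20 bases after it in capitals, are shown because the 2 listed forms share that start and differ in their end.
Ogt intron start, chrX:101652189-101652228: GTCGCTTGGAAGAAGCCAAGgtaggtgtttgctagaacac
Ogt inner acceptor, chrX:101653956-101653995: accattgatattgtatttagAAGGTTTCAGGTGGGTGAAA

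Ogt intron 5 had a ratio of 0.544 in MDP, 0.446 and 0.133 in cMoP, 0.505 and 0.546 in knockout Ly6Chi, 0.797 and 0.780 in control Ly6Chi and 0.859 in Ly6Clo. By its mean ratio it was the most retained tested intron of the 7 genes, and the control Ly6Chi and Ly6Clo libraries stood above all others. In Ly6Clo 843 boundary reads, again summed over both ends, faced 68 spliced reads. In cMoP replicate 2 there were 20 boundary and 50 spliced reads, so its value rests on few reads.

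Relative to spliced reads the boundary reads of Ogt intron 5 were 3.19 higher on the log2 scale in Ly6Chi than in cMoP (unadjusted p = 6.9e-05, adjusted p = 0.238 in edgeR), and both Ly6Chi libraries were above both cMoP libraries. DESeq2 passed it at 3.28 (adjusted p = 0.00335), and it stood at 2.53 without cMoP replicate 2 and at 4.20 without replicate 1. It passed under 4 of the 12 alternatives tried. In edgeR it missed with only the compared groups fitted (adjusted p = 0.601) and with a replicate block (adjusted p = 0.486). In knockout against control Ly6Chi the change was −1.51 (adjusted p = 0.716), with both knockout libraries below both controls. That change was −1.45 with either cMoP replicate left out. It passed under 3 of the 12 alternatives tried, with only the compared groups among them (adjusted p = 0.0223 in edgeR). That fit called 392 of all 48132 introns, 344 of them lower, where the main fit called 1. The fits without a cMoP replicate, the rest of the 3, also called more of all introns than the main fit. With a replicate block the change of Ogt intron 5 missed the threshold (adjusted p = 0.868 in edgeR). The median intron moved by 0.38 between Ly6Chi and cMoP and by −0.32 between knockout and control. The 5 introns with an unadjusted p under 0.05 between knockout and control, named after their values were seen, were both forms of the Ogt intron, introns 5 and 9 of Clk4 and intron 12 of Srpk1, at log2 changes of −1.51, −1.74, −1.03, −1.15 and −3.43. All 5 changes were below 0, as were those of 53 of the 75 introns and of the median intron. Since the 5 were picked by this same contrast, nothing more is read from their direction.

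Reads spliced across the intron can be set against those spliced across introns 4 and 6. In MDP 135 reads joined the exons around intron 5 exactly, and 388 those around intron 6. Control Ly6Chi replicates 1 and 2 had 74 and 61 across intron 5, with 251 and 235 before it and 511 and 444 after it. As a share of the mean of the neighbours, splicing across intron 5 came to 45.6% in MDP, 60.3% and 120.0% in cMoP, 38.0% and 40.9% in knockout Ly6Chi, 19.4% and 17.97% in control Ly6Chi and 13.6% in Ly6Clo. The number of reads spliced across intron 5 was 41 to 135 in all libraries, a narrower range than the 27 to 330 across intron 4.

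**Figure D4:**
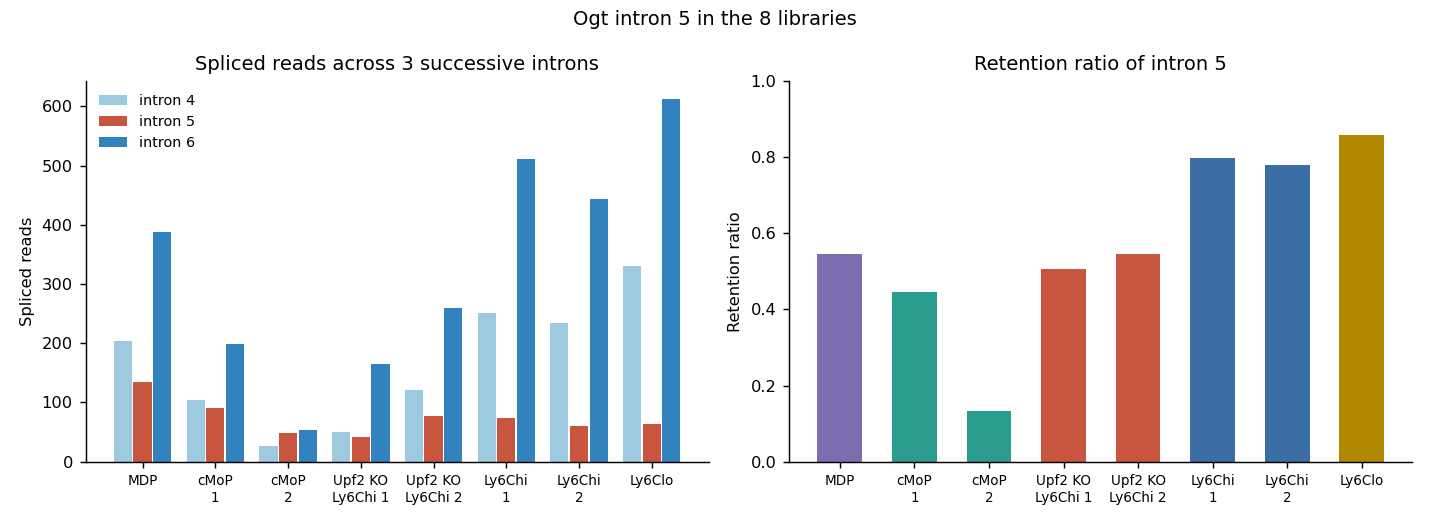
Ogt in each library (x axes): spliced reads across introns 4, 5 and 6 (left, y axis in reads) and the retention ratio of intron 5 (right, y axis 0 to 1). Intron 5 has 41 to 135 spliced reads in every library, while its ratio runs between 0.133 in cMoP replicate 2 and 0.859 in Ly6Clo.

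Of the SR protein kinase genes, Srpk1 had 1 intron retained in every library. Intron 10 (chr17:28599870-28600242, 373 bases, between coding exons) had a ratio of 0.315 in MDP, 0.238 and 0.138 in cMoP, 0.322 and 0.306 in knockout Ly6Chi, 0.305 and 0.326 in control Ly6Chi and 0.409 in Ly6Clo. The knockout and control ranges overlapped, and the cMoP libraries were the lowest. Intron 13 of Srpk1 came next, at 0.042 to 0.129. Srpk2 held no measured intron that was retained in more than the Ly6Clo library: its intron 8 had a ratio of 0.134 in Ly6Clo, from 10 boundary and 48 spliced reads, and 0.035 to 0.084 elsewhere, and its intron 14, which lies near an antisense gene and was not tested, had 0.023 to 0.092.

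**Figure D5:**
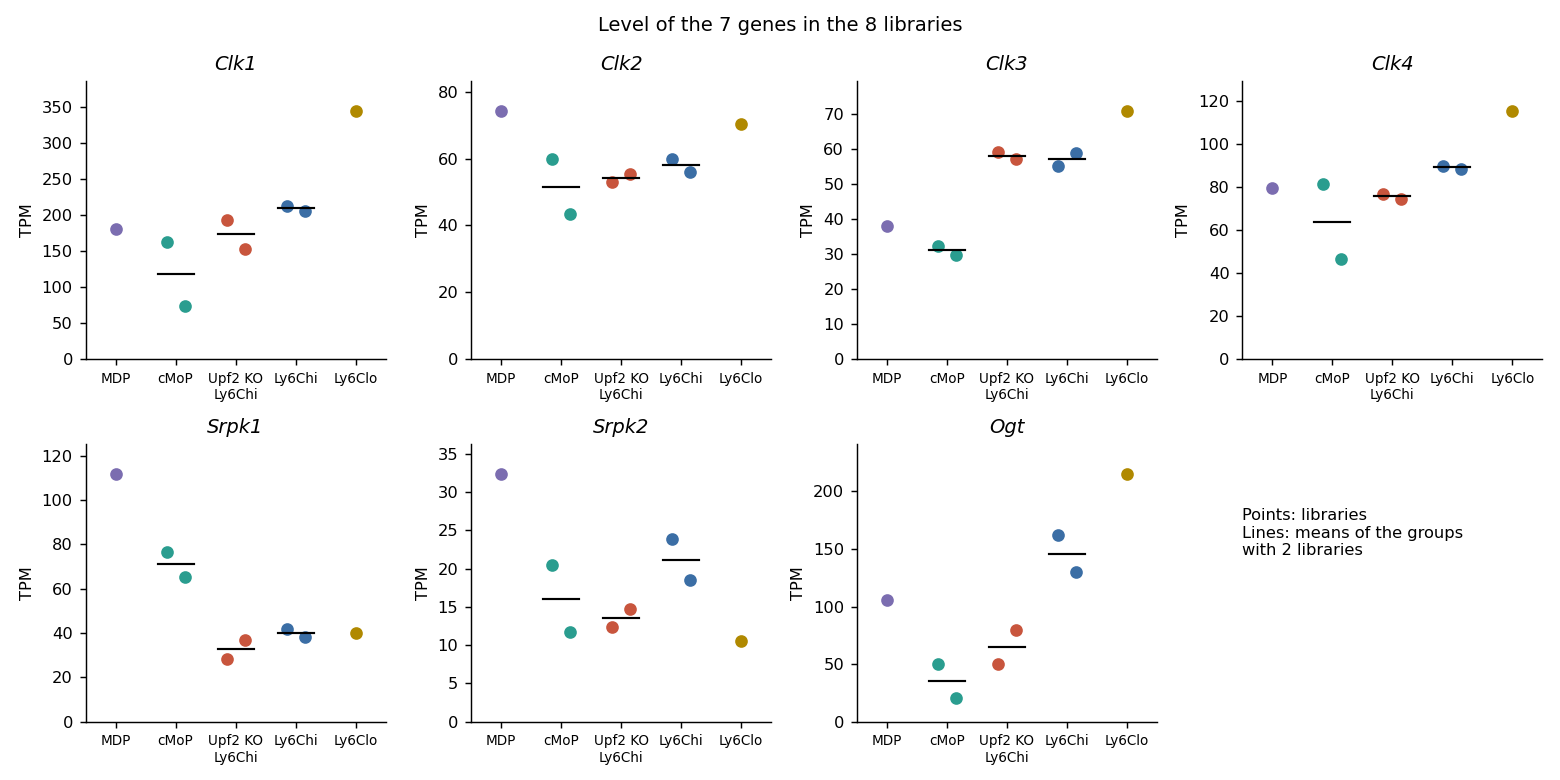
Level in TPM (y axes, each starting at 0) of the 7 genes in each library of the 5 groups (x axes), with lines at the means of groups of 2 libraries. Clk1, Clk3, Clk4 and Ogt are highest in Ly6Clo, and Srpk1 and Srpk2 in MDP.

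At the level of the whole gene, Clk1 (ENSMUSG00000026034, chr1:58410189-58424066) was the most abundant of the 7, at 181 TPM in MDP, 163 and 73.8 TPM in cMoP, 193 and 153 TPM in knockout Ly6Chi, 212 and 206 TPM in control Ly6Chi and 345 TPM in Ly6Clo. Ly6Clo was the highest and cMoP replicate 2 the lowest, and the knockout and cMoP groups could not be put in order, as their libraries overlapped. TPM counts intron-retaining and exon-skipping forms together with the full one. Fewer cells of a type and less RNA per cell cannot be told apart in these bulk libraries.

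Clk4 (ENSMUSG00000020385, chr11:51261730-51281766) followed much the same order at lower levels, with 79.5 TPM in MDP, 81.2 and 46.4 TPM in cMoP, 76.8 and 74.4 TPM in knockout Ly6Chi, 89.9 and 88.3 TPM in control Ly6Chi and 115 TPM in Ly6Clo. The knockout libraries lay below both controls and within the range of cMoP. Over the 8 libraries Clk4 was the gene most like Clk1 among 9641 genes with a mean of at least 5 TPM (Pearson r = 0.98 on log2(TPM + 1)), ahead of Mapk1ip1 and U2af1l4. In turn Clk1 came after Zfp655 and Iffo1 among the genes most like Clk4.

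Clk3 (ENSMUSG00000032316, chr9:57750624-57765860) stood at 37.85 TPM in MDP, 32.4 and 29.6 TPM in cMoP, 59.0 and 57.1 TPM in knockout Ly6Chi, 55.1 and 58.7 TPM in control Ly6Chi and 70.8 TPM in Ly6Clo, and Hcls1, Stk17b and Slc37a3 were the genes most like it (r at least 0.995). The knockout and control overlapped, and both lay above MDP and cMoP. Clk2 (ENSMUSG00000068917, chr3:89164795-89176921) varied least, with 74.3 TPM in MDP, 59.8 and 43.5 TPM in cMoP, 53.0 and 55.5 TPM in knockout Ly6Chi, 59.8 and 56.0 TPM in control Ly6Chi and 70.2 TPM in Ly6Clo, a 1.71-fold range. Its cMoP libraries overlapped those of knockout and control, the knockout libraries lay just below both controls, and Hdac7, Uhrf2 and Rxrb were most like it.

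Srpk1 (ENSMUSG00000004865, chr17:28587648-28622709) was lower at the later stages. It had 112 TPM in MDP, 76.6 and 65.4 TPM in cMoP, 28.4 and 37.1 TPM in knockout Ly6Chi, 41.9 and 38.1 TPM in control Ly6Chi and 39.96 TPM in Ly6Clo. MDP stood above cMoP and cMoP above every monocyte library, while Ly6Clo lay within the control range and the knockout below it. Zc3h7b, Jade1 and Slc16a13 were most like it (r at least 0.993). Srpk2 (ENSMUSG00000062604, chr5:23503264-23684617), the least abundant by its mean, had 32.4 TPM in MDP, 20.5 and 11.8 TPM in cMoP, 12.3 and 14.8 TPM in knockout Ly6Chi, 23.9 and 18.5 TPM in control Ly6Chi and 10.6 TPM in Ly6Clo, and Brd8, Rttn and Crocc were most like it. Its cMoP libraries overlapped those of knockout and control, and both knockout libraries lay below both controls.

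Ogt (ENSMUSG00000034160, chrX:101640060-101684351) varied most, 10.5-fold between the highest and the lowest library. It had 106 TPM in MDP, 50.4 and 20.6 TPM in cMoP, 49.9 and 79.6 TPM in knockout Ly6Chi, 162 and 130.4 TPM in control Ly6Chi and 216 TPM in Ly6Clo. Both knockout libraries lay below both controls and overlapped cMoP. Kat6a, Fam160b1 and Mon2 were most like Ogt (r at least 0.996). These likenesses are across the 8 libraries, which share depth and 3′ lean as well as stage.

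Between cMoP and MDP all 7 genes had a lower mean in cMoP on the log2(TPM + 1) scale used for the tests, which understates changes of low genes, and none passed limma's test. The share of all 13126 genes called was 3.87%, with 1.35% higher and 2.52% lower, and 4 of the 7 had an unadjusted p under 0.05, as did 3532 of all genes. Ogt changed by −1.68 ± 0.54 (SE), with 35.5 ± 21.1 TPM in cMoP (SD, n = 2) and 106 TPM in MDP (adjusted p = 0.139 in limma). Srpk2 changed by −1.02 ± 0.35 (adjusted p = 0.154) and Srpk1 by −0.65 ± 0.21 (adjusted p = 0.144). With median centring these were −0.63 and −0.27, and without cMoP replicate 2 Ogt stood at −1.06 and Srpk2 at −0.64. The median gene lay at −0.28, and with median centring Clk3 and Clk4 stood at 0.10 and 0.01. Without cMoP replicate 1, 5 of the 7 passed, where 4917 of the 13126 genes did. Summed neutrophil markers stood at 388 and 292 TPM in cMoP and 1462 TPM in MDP, and the 3′ lean at 0.70 and 0.98 in cMoP and 0.46 in MDP. Their part in the changes was not tested.

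Between Ly6Chi and cMoP, 3 of the 7 passed limma's test, 2 higher and 1 lower, where 55.5% of all genes were called, 32.3% higher and 23.3% lower. Clk3 rose by 0.86 ± 0.12, with 56.9 ± 2.52 TPM in Ly6Chi and 31.0 ± 1.93 TPM in cMoP (adjusted p = 0.00298). Ogt rose by 2.13 ± 0.44, with 146 ± 22.2 TPM in Ly6Chi and 35.5 ± 21.1 TPM in cMoP, 4.11-fold (adjusted p = 0.00967). Srpk1 fell by 0.81 on the log2 scale (SE 0.175), with 41.9 and 38.1 TPM in Ly6Chi against 76.6 and 65.4 TPM in cMoP (adjusted p = 0.0115).

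These 3 kept their direction under every alternative tried. Ogt missed the threshold without Ly6Chi replicate 1 (adjusted p = 0.0595) and with no filter on low genes (adjusted p = 0.0551), and Srpk1 missed it without Ly6Chi replicate 1 (adjusted p = 0.0578) or replicate 2 (adjusted p = 0.0802). Clk1, at 0.93 ± 0.36, did not pass (adjusted p = 0.0716), although both Ly6Chi libraries lay above both cMoP libraries. It stood at 1.49 without cMoP replicate 1 (adjusted p = 0.00242) and at 0.36 without replicate 2 (adjusted p = 0.124). All 7 passed without cMoP replicate 1, where 8794 of the 13126 genes did. The median gene lay at 0.19, and with median centring Clk2 turned to −0.15. The 3′ lean given above moves with these groups, as do the summed neutrophil markers (8 of 8 found), at 1430 and 1802 TPM in Ly6Chi and 388 and 292 TPM in cMoP. Their part in the changes was not tested. The median count of spliced reads per junction, scaled to the library's spliced reads, gave the same directions for the 3, at 1.67 times the cMoP level for Clk3, 3.67 times for Ogt and 0.472 times for Srpk1.

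Between Ly6Clo and Ly6Chi none of the 7 passed (1 at an unadjusted p under 0.05, and 3719 of all genes), with 13% of all genes called, 5.9% higher and 7.12% lower. Srpk2 changed by −0.93 ± 0.35, at 10.6 TPM in Ly6Clo and 21.2 ± 3.83 TPM in Ly6Chi (adjusted p = 0.156 in limma), and it passed with median centring (adjusted p = 0.0471) and quantile normalisation (adjusted p = 0.0365). Clk1 changed by 0.72 ± 0.44 (adjusted p = 0.352) and stood at 345 TPM in Ly6Clo, above both Ly6Chi libraries. It passed with only these groups fitted (adjusted p = 0.0202), where 3293 of the 13126 genes did. Either cMoP replicate, when left out, brought 3 of the 7 past the threshold, Clk1, Clk4 and Srpk2, where 3683 and 3654 of the 13126 genes passed. Summed neutrophil markers stood at 4853 TPM in Ly6Clo and 1430 and 1802 TPM in Ly6Chi. The largest parts of that sum in Ly6Clo were S100a8 and S100a9, at 1544 and 2183 TPM. Mmp8 of the same list went the other way, at 28.2 TPM in Ly6Clo and 151 and 145 TPM in Ly6Chi. Summed erythroid markers (4 of 4 found) stood at 188.5 TPM in Ly6Clo and 21.1 and 112.5 TPM in Ly6Chi. No marker of either list was at 0 in these libraries, and their part in the result was not tested.

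Between knockout and control Ly6Chi none of the 7 passed, where limma called 1 of 13126 genes (0.00762%), and 1 of the 7 had an unadjusted p under 0.05, as did 1910 of all genes. That gene was Ogt, at −1.19 ± 0.44, with 64.7 ± 21.0 TPM in the knockout and 146 ± 22.2 TPM in the control (unadjusted p = 0.0358, adjusted p = 0.336). It passed under none of the 12 alternatives tried, with an adjusted p of 0.104 to 0.948, and kept its direction in each. Summed neutrophil markers stood at 2248 and 1634 TPM in the knockout and 1430 and 1802 TPM in the control. The junctions of Ogt near its 3′ end over those near its 5′ end had a log2 ratio of 1.97 and 1.29 in the knockout, against 0.96 and 1.03 in the control, and the part of either in the result was not tested. By spliced reads per junction, scaled as above, Ogt in the knockout stood at 0.492 times the control. Clk1 and Srpk2 were also below both controls by this measure, as in TPM. Clk2 stood at 1.17 times, with both knockout libraries above both controls. Clk4 and Srpk1 stood at 1.04 and 0.954 times, with overlapping libraries. In TPM the knockout libraries of Clk2, Clk4 and Srpk1 lay below both controls. Srpk2 changed by −0.60 ± 0.29 (adjusted p = 0.365), and Clk3 by 0.03 ± 0.12.

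The proteins on which these enzymes act were taken from lists. Of 12 measured genes for SR proteins, 7 fell and 0 rose in Ly6Chi against cMoP, with a median of −0.46. Over all genes 23.3% fell and 32.3% rose, with a median of 0.19. With median centring 9 of the 12 fell and with quantile normalisation 8, where 4462 and 4423 of all 13126 genes fell. Srsf7, a shuttling SR protein, fell by 1.39 on the log2 scale (adjusted p = 0.002 in limma), and Srsf3, Tra2b and Srsf2 fell by 0.99, 0.94 and 0.93. None of the 12 passed in the other comparisons, except with quantile normalisation. There 2 fell in cMoP against MDP, where 379 of all 13126 genes fell. In Ly6Clo against Ly6Chi 1 rose and 1 fell, where 1188 of all genes rose and 1429 fell. Of the 6 large SR-rich proteins, Rnps1, a part of the exon junction complex, fell by 1.00 in Ly6Chi against cMoP, and the nuclear speckle scaffold Son rose by 0.79 in Ly6Clo against Ly6Chi, with 278 TPM in Ly6Clo and 168 and 153 TPM in Ly6Chi. The importins of SR proteins, Tnpo3 and Tnpo1, passed in none, with Tnpo3 at −0.34 in Ly6Chi against cMoP (adjusted p = 0.0749), and Tnpo1 at 22.5 and 38.1 TPM in the knockout and 57.3 and 49.0 TPM in the control.

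Of 17 other kinases and phosphatases of SR proteins or nuclear speckles, 6 rose and 2 fell in Ly6Chi against cMoP, beside 32.3% and 23.3% of all genes. With median centring 5 rose and 4 fell, where 3354 of all 13126 genes rose and 4462 fell. The kinase genes Hipk1, Dyrk1b and Dyrk2 rose by 1.98, 2.17 and 1.485, with 115 and 96.0 TPM of Hipk1 in Ly6Chi against 32.9 and 20.2 TPM in cMoP. The phosphatase gene Ppm1g fell by 1.02 there. In Ly6Clo against Ly6Chi the catalytic subunit gene Ppp1cb rose by 1.27, with 288 TPM in Ly6Clo and 117 and 121 TPM in Ly6Chi, while Ppp1cc and Ppp1ca fell by 0.76 and 0.48, and the kinase gene Dyrk3 fell by 2.07. These are 1 rise and 3 falls among the 17, beside 5.9% and 7.12% of all genes. Median centring gave 2 rises and 1 fall, where 1049 of all 13126 genes rose and 1066 fell. Quantile normalisation gave 3 of each, where 1188 of all genes rose and 1429 fell.

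Around Ogt, 8 of 9 genes of the O-GlcNAc and hexosamine pathway were measured. In Ly6Chi against cMoP 2 rose and 2 fell, beside 32.3% and 23.3% of all genes. With median centring 1 rose and 4 fell, where 3354 of all 13126 genes rose and 4462 fell. Mgea5, which encodes the enzyme that removes O-GlcNAc, rose by 1.01 (adjusted p = 0.0262 in limma), at 57.6 and 52.2 TPM in Ly6Chi and 36.3 and 19.6 TPM in cMoP. Gfpt1, the first and rate-limiting enzyme of the hexosamine pathway, rose by 0.89 there and by 1.95 in Ly6Clo against Ly6Chi, with 68.6 TPM in Ly6Clo and 18.95 and 15.3 TPM in Ly6Chi. Gnpnat1, which acts further down the pathway, fell by 1.17 in Ly6Chi against cMoP and rose by 1.47 in Ly6Clo against Ly6Chi. Uap1l1 fell by 0.70 in Ly6Chi against cMoP. Hcfc1, whose protein OGT modifies and cleaves, fell by 0.74 in Ly6Clo against Ly6Chi.

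Of 16 other genes known for detained or retained introns, 5 rose and 4 fell in Ly6Chi against cMoP, beside 32.3% and 23.3% of all genes. With median centring 4 rose and 5 fell, where 3354 of all 13126 genes rose and 4462 fell. None passed in another comparison in the main fit. In Ly6Clo against Ly6Chi 1 rose with median centring and 1 with quantile normalisation, where 1049 and 1188 of all 13126 genes rose. In cMoP against MDP 2 fell with quantile normalisation, where 379 of all genes fell. In Ly6Chi against cMoP the SR-related gene Rsrp1 rose by 1.54, with 525 and 541 TPM in Ly6Chi and 253 and 132 TPM in cMoP. The helicase gene Ddx39b and Mat2a, which encodes the enzyme that makes S-adenosylmethionine, fell by 0.73 and 0.60. The median of the list was 0.39, beside 0.19 for all genes.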

How the data were processed

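Poly(A) RNA of 8 libraries was read as 100 bp pairs with a strand-specific kit, per the labels' protocols, from RNA of an integrity number over 7. The submitters' processing notes name FastQC, Trimmomatic, STAR 2.5.2a, RSEM, mm10 and hg38, and the sources used here give neither the settings nor the intron caller. The authors' expression table is named for FPKM, but its columns share one total, as TPM do, so the deposited values were treated as TPM. The authors' intron tables hold deposited counts of boundary and spliced reads, the depth of coverage over each intron (a deposited signal) and a deposited retention ratio, a fraction. The ratio could be recomputed from depth and spliced counts within 0.001 for 74.6% to 79.6% of introns.

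The members and lists were chosen with earlier results of these data known. Expression was tested with limma 3.58.1 on log2(TPM + 1), keeping the 13126 genes that reached 1 TPM in 2 or more libraries. Retention was tested with edgeR 4.0.16 as the sum of the boundary counts against the larger spliced count, with a term for each library, over 48132 introns with 20 or more such reads in every library and 20 boundary reads over all. Introns that the tables mark for known exons or antisense genes were excluded. All 8 libraries entered each fit, so MDP and Ly6Clo, with 1 library each, were assumed to vary like the other groups. Benjamini-Hochberg adjustment ran over all genes or introns, with a threshold of 0.05. Both scripts were tested on simulated data. Alternatives were DESeq2 1.42.0, other scalings, filters and pseudocounts, fits of the compared groups alone, a replicate block and replicates left out. Same-numbered replicates did not deviate together.

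Intron numbers follow the main GENCODE vM21 transcript. Named were the 7 genes, the 2 introns of each with the highest mean ratio, exon 4 of the Clk genes with its junctions and the introns beside it, the 3 genes most like each member, and per list at most 4 called genes a comparison by smallest adjusted p, or all of a list under 6. Clk4 intron 7 and the neighbours of Ogt intron 5 were named after their values were seen. A gene that the rule names is not reported here.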

Additional observations from a re-analysis of the deposited data

Results flagged for a closer look

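Some introns were kept out of the retention test because the tables mark them for a known exon or an antisense gene, or because they are listed for part of the libraries, and yet held boundary reads in every library that lists them, above the 3 reads that a count of 0 allows. Ogt intron 1 (chrX:101640111-101640217), beside an untranslated exon, had 44 boundary reads in its lowest library and 479 in its highest, with a mean retention ratio of 0.838. Its ratio was 0.840 and 0.866 in knockout Ly6Chi and 0.871 and 0.838 in control Ly6Chi, so the groups overlapped. Clk2 intron 12 had 99 to 151 boundary reads and a mean ratio of 0.180. A further listed intron of Clk2, of 131 bases (chr3:89175756-89175886), is not an intron of the main transcript. It had 86 to 173 boundary reads and no spliced read in any library, which sets its ratio to 1 in each. Clk3 intron 12 had 77 to 170 boundary reads in the 6 libraries that list it and a mean ratio of 0.260, and Clk3 intron 8 had at least 70 boundary reads in every library and a mean ratio of 0.105. None of these values entered a comparison.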

How the results depend on the processing

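No called value changed direction in the alternatives run. Among values not called, scaling turned the sign of Clk3 and Clk4 in cMoP against MDP, of Clk2 in Ly6Chi against cMoP and in knockout against control, and of Srpk1 in Ly6Clo against Ly6Chi. Of the 7 genes, the number past the threshold when each replicate was left out ran between 0 and 5 for cMoP against MDP, 1 and 7 for Ly6Chi against cMoP, and 0 and 3 for Ly6Clo against Ly6Chi, and stayed 0 for knockout against control Ly6Chi. Ly6Clo against Ly6Chi gave 1 with median centring, 1 with quantile normalisation and 2 with only the compared groups, against 0. In these settings 2115, 2617 and 3293 of all 13126 genes passed, against 1708 in the main fit. Of the 75 introns, leaving out each replicate gave 0 to 19 for cMoP against MDP, 0 to 17 for Ly6Chi against cMoP and 0 to 3 for knockout against control. The highest counts came without cMoP replicate 1, when the fit also called 4944 and 6988 of all introns in the first 2 of these. For knockout against control, too, that fit called more of all introns than the main fit did. TMM scaling of boundary and spliced reads apart gave 2 for Ly6Chi against cMoP, where 197 of all 48132 introns passed. DESeq2 gave 2 there as well, where 15 of all introns passed. Fits of only the compared groups gave 1 for Ly6Clo against Ly6Chi and 2 for knockout against control. Of all introns 423 and 392 passed in these fits. The cause was not tested. Skipping of exon 4 set against the larger flanking junction was 48.49% for Clk1 in the knockout and 8.7% for Clk2 in Ly6Chi. With a replicate block 4 genes passed for Ly6Chi against cMoP, Clk1 with the main 3 (adjusted p = 0.0422 in limma), 0 for the knockout, and 0 introns in both. With that block 6331 of all 13126 genes passed for Ly6Chi against cMoP and 0 for the knockout. Of all 48132 introns 5 and 1 passed. The deviations of same-numbered libraries from their group means correlated at −0.136 to 0.063 in expression, so no pairing by number was seen. This cannot tell whether they share an animal or a batch. No paired analysis was possible for MDP and Ly6Clo because each has 1 library. Of 218 further values of single genes and introns, 190 kept their side of the threshold, 24 passed it newly and 4 lost it. Boundary reads as few as 5 at Srpk2 intron 8 limit that intron.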
